A study of Mus musculus with 28 samples.

Results

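The genes described here are 42 genes of the cell division cycle in mouse liver, 16 that act in DNA replication and entry into S phase and 26 that act in mitosis. They were taken as named members by gene symbol from the 49585 features of the count table, all 42 were found, and all 42 were among the 21583 genes with enough reads to be tested. The libraries came from whole liver of C57BL/6JOlaHsd mice 5 to 7 months old, kept on standard chow and fasted before collection. Sex and genotype, wild type (WT) or SIRT6-tg, made 4 groups of 7 mice each. SIRT6-tg mice carry a Sirt6 transgene in the whole body and descend from 1 transgenic line, and the WT mice were their littermates. No other allele or treatment separated the groups. All values below are normalized counts unless stated, that is, the read count of a gene in a library divided by the library's size after TMM scaling (the trimmed mean of M-values, which sets the bulk of genes level between libraries) and multiplied by the mean scaled size of all libraries.

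A cell that is to divide first loads the MCM helicase onto replication origins with the help of Cdc6 and Cdt1, then copies its DNA at forks held by PCNA while ribonucleotide reductase, thymidylate synthase and thymidine kinase supply deoxynucleotides. Cyclin B with Cdk1 and the Aurora and Polo-like kinases then drive mitosis, and the anaphase-promoting complex with Cdc20 ends it. E2F factors are known regulators of the replication genes, while mitotic genes are known to carry a cell cycle homology region (CHR) and CCAAT boxes, and most hepatocytes of an adult liver are not in cycle. In whole tissue, fewer dividing cells and less RNA of these genes per cell cannot be told apart.

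Promoter windows of 5 genes are printed to show this difference in sequence between the gene groups, and they were chosen after the values were seen. Each holds 300 bases, 250 before to 50 after the start of the gene, 5' to 3' on the strand of the gene, from RefSeq on GRCm38.p6, the same primary assembly as the mm10 of the counts. Capitals mark an E2F core (spelled TTCCCGC, or with other middle letters TTGGCGC, or likewise TTCGCGC, or finally TTGCCGC), a CHR (spelled TTTGAA, or alternatively TTCGAA) or a CCAAT box, each searched on both strands, so that a site on the other strand stands as its reverse complement. Cdc20 lies on the minus strand at chr4:118437294-118437593, Ccnb2 on the minus strand at chr9:70421505-70421804, Mcm6 on the minus strand at chr1:128359656-128359955, Mcm5 on the plus strand at chr8:75109259-75109558 and Tk1 on the minus strand at chr11:117825965-117826264.
Cdc20: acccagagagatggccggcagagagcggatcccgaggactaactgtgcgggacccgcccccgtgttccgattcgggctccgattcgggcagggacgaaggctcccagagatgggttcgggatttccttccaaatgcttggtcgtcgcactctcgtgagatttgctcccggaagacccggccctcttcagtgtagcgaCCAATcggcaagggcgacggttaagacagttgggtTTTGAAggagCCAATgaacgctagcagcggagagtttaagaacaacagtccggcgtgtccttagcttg
Ccnb2: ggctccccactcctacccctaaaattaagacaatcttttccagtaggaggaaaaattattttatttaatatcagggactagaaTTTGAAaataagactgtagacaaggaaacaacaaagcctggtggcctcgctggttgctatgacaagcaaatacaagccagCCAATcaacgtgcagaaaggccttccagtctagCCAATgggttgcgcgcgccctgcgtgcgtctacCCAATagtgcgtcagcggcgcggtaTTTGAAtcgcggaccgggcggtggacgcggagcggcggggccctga
Mcm6: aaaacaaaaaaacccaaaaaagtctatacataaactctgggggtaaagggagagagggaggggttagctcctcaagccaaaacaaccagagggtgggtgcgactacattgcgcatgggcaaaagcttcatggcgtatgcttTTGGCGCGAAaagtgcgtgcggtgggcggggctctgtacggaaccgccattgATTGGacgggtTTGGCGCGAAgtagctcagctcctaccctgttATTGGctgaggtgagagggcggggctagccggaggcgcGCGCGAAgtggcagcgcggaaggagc
Mcm5: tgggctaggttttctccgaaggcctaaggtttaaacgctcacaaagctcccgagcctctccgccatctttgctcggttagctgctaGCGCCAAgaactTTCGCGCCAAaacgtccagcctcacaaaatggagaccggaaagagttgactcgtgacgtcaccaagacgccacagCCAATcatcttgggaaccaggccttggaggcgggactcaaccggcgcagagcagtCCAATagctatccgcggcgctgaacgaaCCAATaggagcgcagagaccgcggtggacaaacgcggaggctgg
Tk1: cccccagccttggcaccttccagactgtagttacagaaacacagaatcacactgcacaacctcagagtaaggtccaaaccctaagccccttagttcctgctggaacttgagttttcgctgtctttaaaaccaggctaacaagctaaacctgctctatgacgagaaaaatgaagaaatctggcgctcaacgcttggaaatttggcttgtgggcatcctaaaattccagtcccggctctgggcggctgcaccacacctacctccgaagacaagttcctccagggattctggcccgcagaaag
Cdc20 held 1 CHR and 2 CCAAT boxes and Ccnb2 held 2 and 3, neither with an E2F core. Mcm6 held 5 E2F cores and 2 CCAAT boxes and Mcm5 held 3 of each, neither with a CHR. Some of these E2F cores overlap on opposite strands and were counted separately. None of the motifs was found in the window of Tk1, which says only that these letters are not in it.

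A promoter window was found for 34 of the 42 genes. The CHR was in 15 of 20 windows of mitosis genes (75.0%), in 3 of 14 of replication genes (21.4%), and in 19.4% of all 27025 windows. The E2F core was in 7 of 14 windows of replication genes (50%), in 4 of 20 of mitosis genes (20%), and in 9.69% of all windows. The CCAAT box was in 17 of 20 windows of mitosis genes (85.0%) and in 8 of 14 of replication genes (57.1%), against 37.9% of all windows. All 15 CHR windows of mitosis genes also held a CCAAT box, a pair found in 7.70% of all windows. The genes Aurkb, Foxm1, Ccna2, Stmn1, Ccne2, Kif20a, Mcm4 and Tpx2 had no entry.

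**Figure D1:**
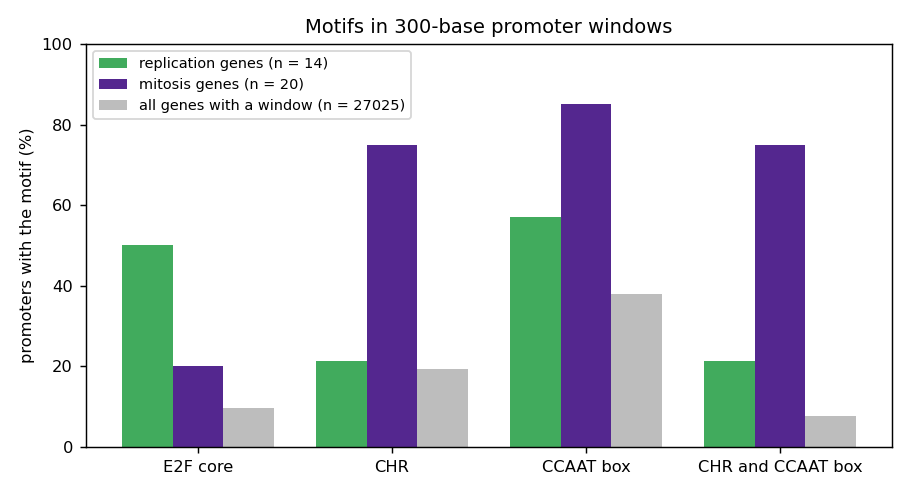
The bars give the percentage of 300-base promoter windows that hold each motif, for replication genes, mitosis genes and all genes with a window. The CHR and the CCAAT box together were in 75.0% of the windows of mitosis genes, 21.4% of those of replication genes and 7.70% of all windows.

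Library totals ran from 18758863 to 35393069 counts, and no 2 libraries of a group agreed within sampling noise. Hepatocyte markers summed to 98002 to 189260 CPM per library. Sirt6 itself rose from a mean of 72.6 ± 13.6 (SD, n = 7) to 7461 ± 1467 in male SIRT6-tg livers and from 76.5 ± 41.1 to 802 ± 331 in females, and the groups did not overlap in either sex. Male WT replicate 7, the deepest library, stood apart from the other male WT mice. It was the highest of its group for all 26 mitosis genes and for 13 of the 16 replication genes, so counts that rest on it are also given without it.

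In males, the mitosis genes were lower in SIRT6-tg livers almost without exception, and a smaller part of the replication genes was lower. By the quasi-likelihood F-test of edgeR with Benjamini-Hochberg adjustment over all genes (threshold 0.05), 25 of the 26 mitosis genes were lower and none was higher, with a median log2 fold change of -2.23, which is 4.71-fold lower. Of the 16 replication genes, 6 (37.5%) were lower and 1 was higher, with a median of -0.36 and 12 negative log2 fold changes. By DESeq2, 26 mitosis and 9 replication genes were lower and 1 gene was higher. The background was 11.0% of all tested genes lower and 9.68% higher, with a median log2 fold change of 0.06. For 25 of the 42 genes every male SIRT6-tg library lay below every male WT library, against 4.37% of all genes. These were 22 mitosis genes and the 3 helicase subunits Mcm3, Mcm5 and Mcm6. Without male WT replicate 7, 5 replication and 25 mitosis genes were lower and 1 gene was higher, with medians of -0.28 and -1.93. The TMM factors were 1.06 to 1.17 in male WT and 0.821 to 0.993 in male SIRT6-tg livers, and scaling by library totals alone moved the median of all genes to -0.22 and gave 37 of the 42 genes lower and 0 higher. Of all genes called in males, 46.8% were higher with TMM, 35.7% with RLE factors, 26.2% with upper-quartile factors, 4.89% with library totals alone and 61.1% with 2 surrogate variables.

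**Figure D2:**
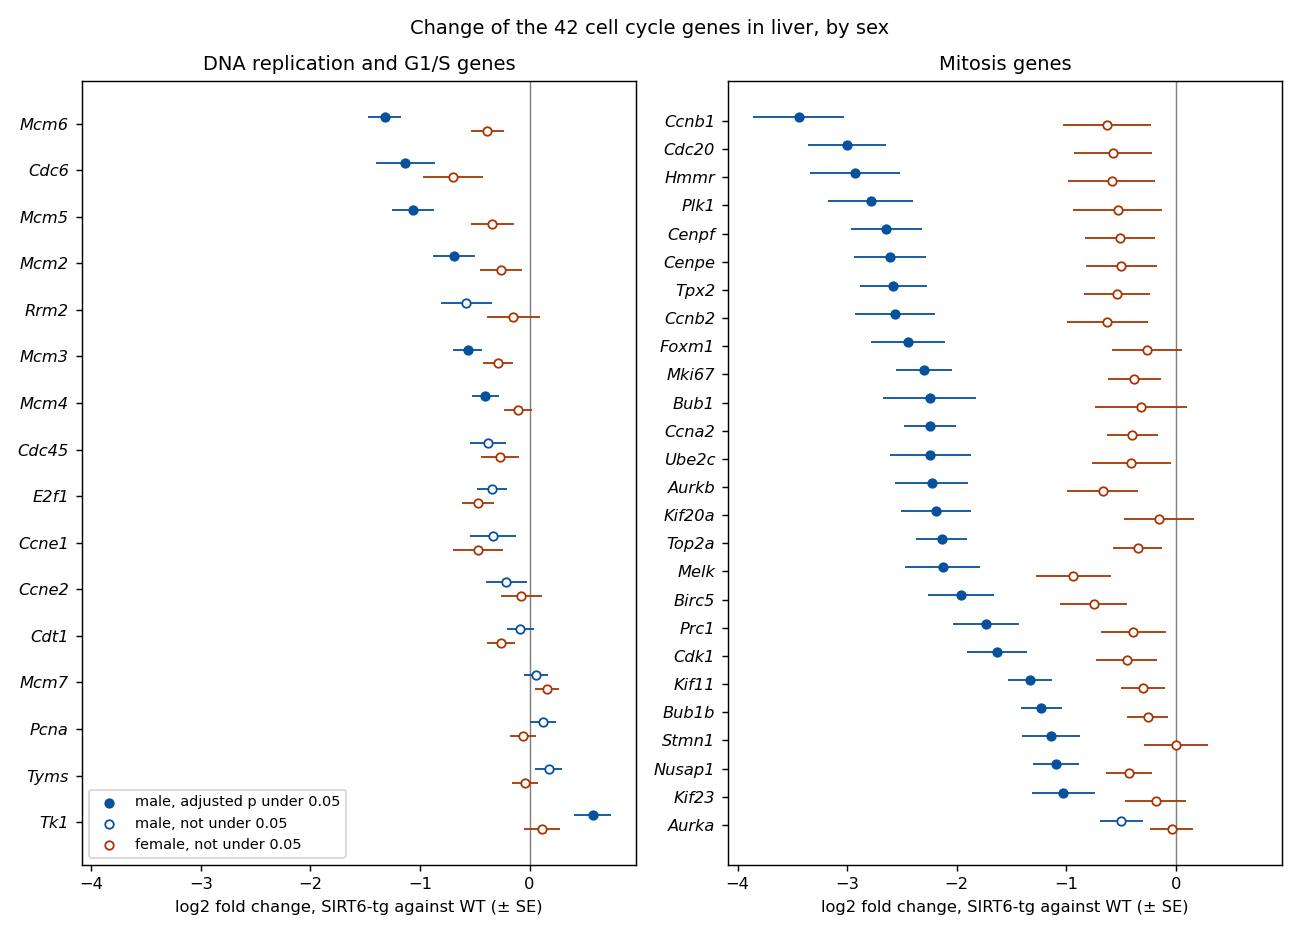
Each row is 1 gene, with the log2 fold change of SIRT6-tg against WT on the horizontal axis, a bar of 1 SE to each side, and filled points for an adjusted p under 0.05. In males 25 of 26 mitosis genes and 6 of 16 replication genes were lower and Tk1 was higher, while no gene passed in females.

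Of the 6 replication genes lower in males, 5 were helicase subunits and the sixth was the helicase loader Cdc6. The helicase subunit Mcm6 ran from 223 to 453 in male WT livers (median 287) and 109 to 151 in male SIRT6-tg livers (median 121). The ranges did not overlap, and Mcm6 fell by 1.32 ± 0.15 (SE) on the log2 scale (edgeR adjusted p = 1.91e-07). Mcm2, another subunit, ran from 75.1 to 257 (median 137) in WT and from 65.2 to 104 (median 87.6) in SIRT6-tg males. Its groups overlapped, and the fall was 0.69 ± 0.19 (edgeR adjusted p = 0.0092). Mcm5 fell by 1.07 ± 0.19 and Mcm3 by 0.56 ± 0.14, both without overlap (edgeR adjusted p = 0.00012 and 0.00282). Mcm4 fell by 0.40 ± 0.13 with an adjusted p of 0.0211 by edgeR, and that p became 0.0824 without male WT replicate 7 and 0.0522 without male SIRT6-tg replicate 3. Mcm7, the subunit that shares a transcript locus with microRNAs and overlaps Ap4m1 and Cops6, was the exception, at 0.06 ± 0.11. That log2 fold change turned to -0.0153 with upper-quartile factors and -0.21 with library totals alone. The exons of Cops6 and Ap4m1 cover 1.45% and 7.25% of those of Mcm7. In males Cops6 rose by 0.27 ± 0.09 (edgeR adjusted p = 0.0353) and Ap4m1 had 0.08 ± 0.14. Their part in the value of Mcm7 was not tested.

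The origin licensing genes did not move as 1 group. Cdc6, which loads the helicase, ran from 8.0 to 17.8 in male WT (median 15.1) and 4.23 to 8.96 in male SIRT6-tg livers (median 6.43). The ranges met at their ends, and Cdc6 fell by 1.13 ± 0.27 (edgeR adjusted p = 0.00241) on raw counts of 3 to 27. Cdt1, the other loading factor, ran from 143 to 230.2 and from 132 to 203 in the same groups, with a log2 fold change of -0.08 ± 0.12 and a 95% interval of -0.32 to 0.16. Cdc45, which joins the helicase at the fork, had -0.38 ± 0.17 (edgeR adjusted p = 0.108, DESeq2 adjusted p = 0.038). The sliding clamp Pcna ran from 392 to 597 in male WT (median 477) and 463 to 649 in male SIRT6-tg livers (median 519.7), overlapping over most of both ranges. Its log2 fold change of 0.13 ± 0.12 (95% interval -0.10 to 0.35) turned to -0.17 when libraries were scaled by their totals alone.

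Of the 3 genes of nucleotide supply, only Tk1 passed by edgeR in males. Thymidine kinase Tk1 ran from 284 to 447 in male WT livers (median 397) and 426 to 666 in male SIRT6-tg livers (median 594). Only the ends of the ranges met, and Tk1 rose by 0.58 ± 0.17 (edgeR adjusted p = 0.0135), the 1 member that was higher. With library totals alone the change was 0.29 (edgeR adjusted p = 0.247). Afmid, a neighbour whose exons cover 1.60% of those of Tk1, rose by 0.55 ± 0.16 (edgeR adjusted p = 0.0138). The strand setting of the counting is not stated and the kit does not mark strand, so reads in that overlap cannot be assigned, and its part in the rise was not tested. Rrm2, the small subunit of ribonucleotide reductase, ran from 139 to 376 in WT (median 198) and from 104 to 210.1 in SIRT6-tg males (median 159), with a log2 fold change of -0.58 ± 0.23 (edgeR adjusted p = 0.0803, DESeq2 adjusted p = 0.0495). Thymidylate synthase Tyms had 0.18 ± 0.12, which turned to -0.12 with library totals alone.

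Of the 3 genes that open S phase, 0 passed the test in males by edgeR and E2f1 passed by DESeq2 (adjusted p = 0.0253). The E cyclins Ccne1 and Ccne2 had log2 fold changes of -0.33 ± 0.21 and -0.21 ± 0.19, and the transcription factor E2f1 had -0.34 ± 0.14 (edgeR adjusted p = 0.281, 0.476 and 0.0739). E2f1 ran from 131 to 233 in male WT and 106 to 182 in male SIRT6-tg livers, so the groups overlapped.

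**Figure D3:**
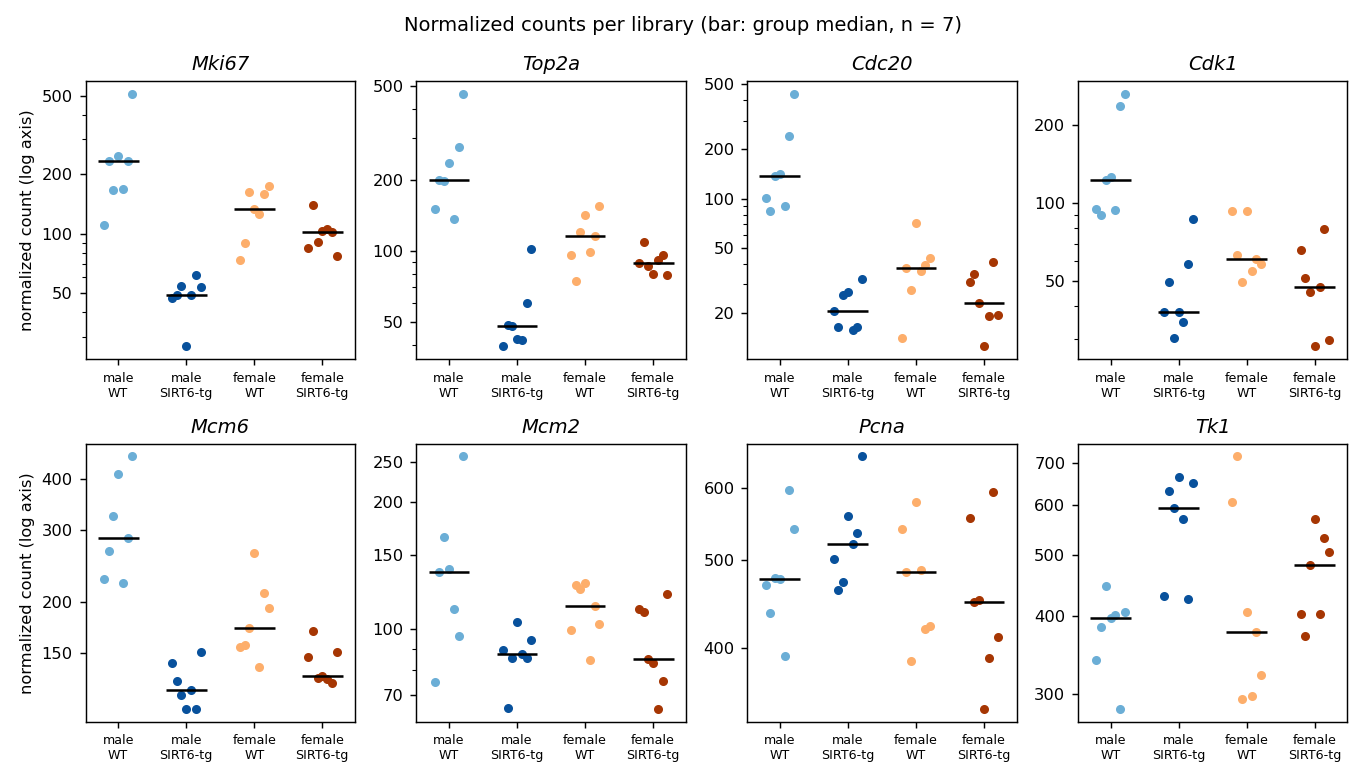
Each point is 1 liver library and each bar a group median, on a log axis of normalized counts. The male SIRT6-tg points lie below all male WT points for Mki67, Top2a, Cdc20, Cdk1 and Mcm6, and overlap them for Mcm2, Pcna and Tk1, and male WT replicate 7 is the rightmost point of its group.

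The mitotic cyclins and kinases fell together in males, with 9 of 10 lower and a median of -2.23. Cyclin B1, the activator of Cdk1 at mitosis, gave the lowest log2 fold change of the 42. Ccnb1 ran from 14.1 to 92.1 in male WT (median 30.7) and 1.10 to 8.45 in male SIRT6-tg livers (median 2.75), on raw counts of 1 to 6 in the latter. Ccnb1 fell by 3.44 ± 0.42 (edgeR adjusted p = 4.47e-07). Cdk1, the kinase itself, ran from 90.2 to 265 (median 123) and from 30.3 to 87.3 (median 38.2) in the same groups. The ranges of both genes stayed apart, and Cdk1 fell by 1.63 ± 0.27 (edgeR adjusted p = 4.8e-05). Cyclin A2, which acts in S phase and at mitotic entry, ran from 48.5 to 188 (median 74.7) and from 14.4 to 26.8 (median 19.7), and Ccna2 fell by 2.24 ± 0.24 (edgeR adjusted p = 7.24e-08). Cyclin B2 (Ccnb2) fell by 2.56 ± 0.36, the Polo-like kinase Plk1 by 2.79 ± 0.39, Aurora kinase B (Aurkb) by 2.23 ± 0.33 and the kinase Melk by 2.13 ± 0.34. The checkpoint kinases Bub1 and Bub1b also fell. Aurka, Aurora kinase A, was the 1 mitosis gene that did not pass, at -0.50 ± 0.19 (edgeR adjusted p = 0.0683). It passed by DESeq2 (adjusted p = 0.0406), and by edgeR with upper-quartile factors, library totals alone, the replicate number as a block or 2 surrogate variables (adjusted p = 0.0412, 0.00179, 0.0323 and 0.0225). It also passed when male WT replicate 1, male WT replicate 2 or male SIRT6-tg replicate 7 was left out (edgeR adjusted p = 0.0294, 0.0332 and 0.00482).

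The genes of chromosomes and centromeres were lower in 5 of 5 cases. The proliferation antigen Mki67, which coats mitotic chromosomes, ran from 110.3 to 512 in male WT (median 233) and 26.8 to 61.4 in male SIRT6-tg livers (median 48.8). There was no overlap, and Mki67 fell by 2.30 ± 0.25 (edgeR adjusted p = 1.29e-07). Top2a, the topoisomerase that untangles sister chromatids, ran from 136 to 464 (median 199) and from 39.3 to 101 (median 47.8) and fell by 2.14 ± 0.23 (edgeR adjusted p = 8.79e-08). Birc5, the survivin subunit of the chromosomal passenger complex, ran from 45.3 to 190.1 and from 17.7 to 47.9, overlapped slightly, and fell by 1.96 ± 0.30 (edgeR adjusted p = 1.39e-05). The kinetochore genes Cenpe and Cenpf fell by 2.61 ± 0.33 and 2.64 ± 0.33.

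The genes of the anaphase-promoting complex and Foxm1, a transcription factor of mitotic genes, were lower in 3 of 3 cases. Cdc20, the activator of the complex, ran from 84.1 to 437 in male WT (median 137) and 15.9 to 32.4 in male SIRT6-tg livers (median 20.7), with no overlap. Cdc20 fell by 3.0 ± 0.35 (edgeR adjusted p = 3.44e-07), to 8.02-fold lower. Foxm1 ran from 21.9 to 96.7 (median 38) and from 3.29 to 13.9 (median 7.74), again without overlap, and fell by 2.44 ± 0.34 (edgeR adjusted p = 2.74e-06). Ube2c, the ubiquitin-conjugating enzyme of the complex, fell by 2.24 ± 0.37 and shares 22.8% of its exon bases with Tnnc2.

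All 8 spindle genes were lower in males, with a median of -1.53 and a range of -2.93 (Hmmr) to -1.03 (Kif23). Tpx2, which activates Aurora kinase A on the spindle, ran from 44.6 to 205 in male WT (median 82.1) and 7.64 to 27.4 in male SIRT6-tg livers (median 12.9), without overlap, and fell by 2.58 ± 0.30 (edgeR adjusted p = 3.05e-07). Stmn1, which destabilizes microtubules, ran from 27.4 to 86.8 (median 35.1) and from 12.9 to 25.2 (median 21.7), also without overlap. Stmn1 fell by 1.14 ± 0.26 (edgeR adjusted p = 0.00206). The motors Kif20a, Kif11 and Kif23 fell by 2.19 ± 0.32, 1.33 ± 0.20 and 1.03 ± 0.29. Kif20a shares 29.3% of its exon bases with Cdc23, which had a log2 fold change of -0.0016 ± 0.15. The spindle binders Nusap1 and Prc1 fell by 1.09 ± 0.21 and 1.73 ± 0.30.

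Levels between genes can be compared only per length of exon. In male WT livers Pcna had the highest level of the 42, 7.59 ± 1.05 CPM per kb (SD, n = 7), and Cdc6 the lowest, 0.104 ± 0.0237. Cdc20 had 3.55 ± 2.56 CPM per kb in male WT and 0.445 ± 0.128 in male SIRT6-tg livers. Pcna in male SIRT6-tg livers had 8.29 ± 0.988. Summed over the 26 mitosis genes, the libraries ran from 48 to 184 CPM in male WT livers (median 69.9) and from 32.1 to 48.8 in female WT livers (median 39.7). With the transgene they ran from 18.4 to 31.2 in males (median 19.5) and from 24.6 to 38.3 in females (median 29.1).

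In females no gene of the 42 passed the test. The count was 0 by edgeR and 0 by DESeq2, against a background of 0.00463% of all genes lower and 0.0232% higher. An unadjusted p under 0.05 was found for 10 genes, all lower, 6 of them replication and 4 mitosis genes, where 5.62% of all genes had such a p, and 39 of the 42 log2 fold changes were negative. The medians were -0.26 for replication and -0.42 for mitosis genes, with 0.0026 over all genes. E2f1 had the lowest adjusted p, with 77.1 to 133 in female WT (median 98.7), 52.4 to 86.3 in female SIRT6-tg livers (median 70.9), and a log2 fold change of -0.47 ± 0.14 (edgeR adjusted p = 0.409). Its groups overlapped.

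Mki67 ran from 73.9 to 173 in female WT (median 133) and from 77.1 to 139.8 in female SIRT6-tg livers (median 102). One group lay within the span of the other, and the log2 fold change of -0.38 ± 0.24 had a 95% interval of -0.86 to 0.09. Melk had the lowest log2 fold change in females, -0.94 ± 0.35 (95% interval -1.61 to -0.26, edgeR adjusted p = 0.62). Other genes with an unadjusted p under 0.05 were Cdc6, Mcm6, Mcm3, Cdt1, Ccne1, Birc5, Aurkb and Nusap1. Tk1 had 0.11 ± 0.17 in females and Mcm7 0.16 ± 0.11. Pcna and Tyms had -0.06 ± 0.12 and -0.04 ± 0.12, and both turned positive, at 0.00107 and 0.0163, without female SIRT6-tg replicate 4.

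The difference between the sexes was tested as the male effect of the transgene minus the female effect. It was more negative in males for 18 of the 42 genes, 17 mitosis genes and Mcm6, against 3.84% of all genes, and more positive for none, against 1.20%. Of all genes called for the difference, 23.9% were more positive with TMM, 10.8% with upper-quartile factors, 1.4% with library totals alone and 51.6% with 2 surrogate variables. With male WT replicate 7 left out it was 14 genes, 13 of them mitosis genes, since Aurkb, Bub1b, Ube2c and Kif11 then had edgeR adjusted p-values of 0.104, 0.0557, 0.0762 and 0.0583. Of the 28 fits with 1 library left out, Aurkb was called in 12 and Ube2c in 18. Cdc20 differed by -2.43 ± 0.50 (edgeR adjusted p = 0.0037), Mki67 by -1.92 ± 0.35 (0.00138 by edgeR, adjusted), and Mcm6 by -0.94 ± 0.21 (0.00746 by edgeR, adjusted). Kif20a differed by -2.04 ± 0.46 and Tpx2 by -2.05 ± 0.43. For Tk1 the difference was 0.46 ± 0.24, with a 95% interval of -0.0018 to 0.93 (edgeR adjusted p = 0.293), and for Pcna it was 0.18 ± 0.17. Sirt6 was 9.31-fold lower in female than in male SIRT6-tg livers, so sex and transgene level cannot be told apart in this difference.

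The sexes already differed without the transgene. In female WT livers 27 of the 42 genes were lower than in male WT livers, 6 replication and 21 mitosis genes, against 6.65% of all genes, and none was higher, against 5.71%. The median was -1.13 over mitosis and -0.35 over replication genes. Higher genes made up 46.2% of all called genes with TMM and 13.2% with library totals alone. Cdc20 ran from 14.1 to 71.0 in female WT livers (median 37.7), below every male WT library, and was lower by 2.20 ± 0.33 on the log2 scale (edgeR adjusted p = 2.89e-05). Ccne1 and Cdc45 were also below every male WT library, as was Ccnb2. The share of all genes that lay below in this way was not counted between the WT sexes. Without male WT replicate 7 the count was 19, 4 replication and 15 mitosis genes, and Mki67, Foxm1, Ube2c, Aurka, Aurkb, Bub1, Rrm2 and Cdc45 no longer passed (edgeR adjusted p from 0.0559 to 0.205).

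Between the SIRT6-tg groups, few genes passed the test. In female against male SIRT6-tg livers 3 replication genes were lower (Cdt1, Ccne1 and E2f1), against 12.9% of all genes, and 5 mitosis genes were higher (Mki67, Foxm1, Top2a, Ccna2 and Kif11), against 10.2%. The 3 and 5 of 42 are shares near or under that background. By list they were 3 of 16 replication genes (18.8%) and 5 of 26 mitosis genes. The log2 fold change was positive for 24 of the 26 mitosis genes, with a median of 0.61. It was negative for 10 of the 16 replication genes, with a median of -0.18, where the median over all genes was 0.04. Higher genes made up 44.1% of all called genes with TMM, 60.8% with upper-quartile factors and 61% with library totals alone. E2f1 was the 1 gene lower in every female library, by 1.01 ± 0.14 (edgeR adjusted p = 5.72e-06). Mki67 was the 1 gene higher in every female library, by 1.05 ± 0.26 (edgeR adjusted p = 0.00343). The share of all genes with such separate ranges was not counted for this comparison. E2f1, Mki67 and Ccne1 (-1.34) were called in all 28 fits with 1 library left out. The other 5 calls moved with single libraries, and without male SIRT6-tg replicate 4 none of these 5 was called.

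Genes of the same pathways outside the 42 were counted from lists. These lists, like the members, were chosen with earlier results of these data known. Of 27 further mitosis genes 24 (88.9%) were lower in males, against 11.0% of all genes, with a median of -1.69. The kinetochore gene Nuf2 fell by 2.63 ± 0.33, the spindle gene Ckap2l by 2.76 ± 0.35 and the motor Kif2c by 2.51 ± 0.33. Pttg1, the securin gene, Spc25 and Smc4 did not pass, at 0.60 ± 0.29, -0.62 ± 0.23 and -0.24 ± 0.15. Of 24 further replication genes 5 (20.8%) were lower and 1 was higher, against 11.0% and 9.68% of all genes, with a median of -0.12. Uhrf1, which links replication to DNA methylation, fell by 2.05 ± 0.28, and Clspn, Gins2, Lig1 and Chaf1a were the others. Mcm10 rose by 0.84 ± 0.21, from 2101 to 3113 in male WT to 2967 to 5817 in male SIRT6-tg livers.

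Regulators of the restriction point mostly did not pass. Of 22 such genes 5 (22.7%) were lower in males and none higher, against 11.0% and 9.68% of all genes. Their median was -0.0033. Cyclin D1, the growth-signal cyclin, ran from 671 to 1844 in male WT (median 1390.2) and 275 to 767 in male SIRT6-tg livers (median 527), and Ccnd1 fell by 1.4 ± 0.29 (edgeR adjusted p = 0.000658). The pocket protein gene Rbl1 ran from 93.3 to 174 and from 34 to 45.9, without overlap, and fell by 1.58 ± 0.18. Ccnd2, E2f2 and E2f7 also fell. Inhibitors of cyclin-dependent kinases were lower as well in 3 of 7 cases (42.9%, against the same 11.0%). Cdkn1a (p21) ran from 68.0 to 401 in male WT and 21 to 100.02 in male SIRT6-tg livers and fell by 1.84 ± 0.34 (edgeR adjusted p = 0.000219), Cdkn2a by 3.0 ± 0.43 and Cdkn2c by 0.73 ± 0.14. In females no gene of these 4 lists passed by edgeR, and none by DESeq2, with 3 of their 80 genes at an unadjusted p under 0.05, against 5.62% of all genes.

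Markers of immune cells moved with the same contrast in males, where 11.0% of all tested genes were lower and 9.68% higher. All 9 T cell markers were lower in male SIRT6-tg livers, with a median of -2.38, and none was at 0 in all libraries of a group. Their summed level ran from 16.5 to 47.7 CPM in WT males, 4.97 to 7.76 in SIRT6-tg males, 5.52 to 17.4 in WT females and 6.08 to 14 in SIRT6-tg females. All 8 macrophage markers were lower, with a median of -1.21 and summed levels of 350.3 to 1089, 277 to 473, 381 to 751 and 295 to 718 CPM in the same order. The 5 stellate cell markers were lower too, with sums of 283 to 524, 219.7 to 319, 292 to 368 and 264 to 420.2 CPM. B cell markers were lower in 3 of 6 cases, with sums of 33.8 to 87.5, 18.5 to 95.5, 25.5 to 54.2 and 16.1 to 119 CPM. Hepatocyte markers were higher in 2 of 7 cases (Alb and Cyp2e1), erythroid markers in 2 of 7, and neutrophil and cholangiocyte markers in 0 of 4 and 0 of 5. Endothelial markers were lower in 1 of 5. Ly6g, a further neutrophil marker, was at 0 in every male SIRT6-tg library. Its reads over all libraries were too few for it to be tested, so this 0 does not show a difference between the groups. In females 0 of the 56 markers tested passed by edgeR and 0 by DESeq2, with 6 at an unadjusted p under 0.05, against 5.62% of all genes. The part of these cells in the result was not tested.

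Within the male WT group the mitosis genes and the T cell markers ran in much the same order over 6 of the 7 libraries. Their mean log2 CPM was 0.67 for mitosis genes and 1.29 for T cell markers in replicate 1, 0.78 and 0.85 in replicate 5, 1.02 and 1.5 in replicate 2, 1.22 and 1.92 in replicate 3, 1.38 and 2.03 in replicate 4 and 1.70 and 2.30 in replicate 6. Replicate 7 was the highest for mitosis genes (2.53) but not for T cell markers (1.93). Macrophage markers were lowest in replicate 1 (5.05 log2 CPM) and highest in replicate 7 (6.83). Between them stood replicates 5 (5.69), 3 (6.06), 2 (6.10), 4 (6.48) and 6 (6.62). This is the order of the mitosis genes over all 7 libraries, except that replicates 2 and 3 change places. Replicate 1 was also lowest for 12 of the 26 mitosis genes. In the other groups mitosis genes and T cell markers did not keep the same order. Female SIRT6-tg replicate 2 was highest for mitosis genes (0.36) but had -0.37 for T cell markers. Replicate 6 of that group had 0.31 for mitosis genes and the group's lowest level of macrophage markers (4.71). Female WT replicate 4 was highest for both (0.72 and 0.85), while female WT replicate 7 had 0.64 and -0.0017.

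**Figure D4:**
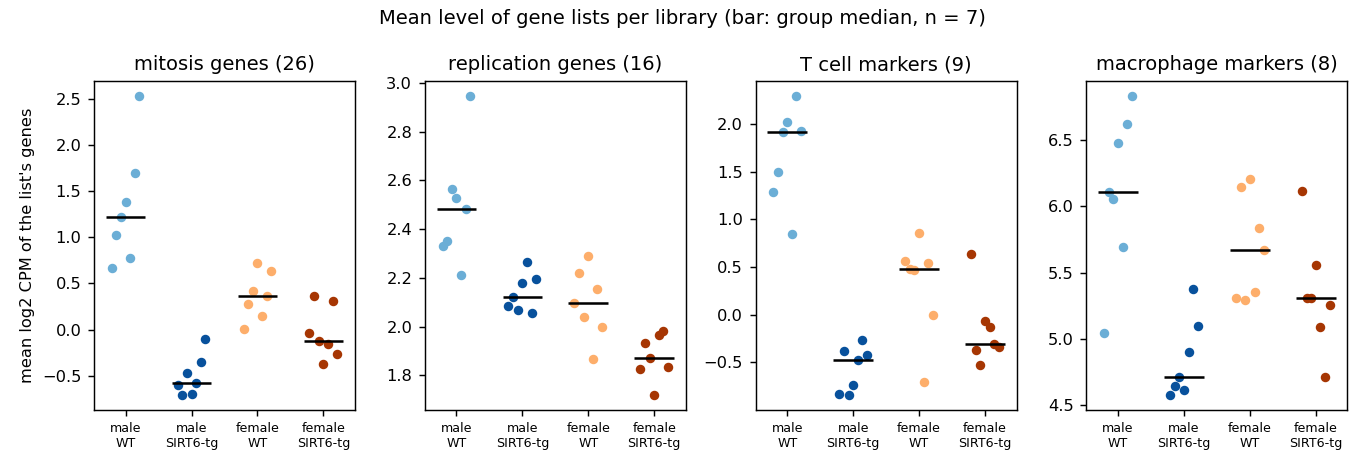
Each point is 1 library and each bar a group median, with the mean log2 CPM of the genes of a list on the vertical axis, whose scale differs between panels. Male SIRT6-tg libraries lie below all male WT libraries for the mitosis genes and the T cell markers, and male WT replicate 7 is the highest point for mitosis genes at 2.53.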

How the data were processed

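Liver RNA of 28 mice was sequenced in single-end libraries made with the NEBNext Ultra kit. Alignment by the authors used STAR (2.5.0a) on the mm10 genome, HTSeq assigned uniquely mapped reads to genes of a Gencode annotation, and 1 table of raw counts was deposited. The strand setting of the counting is not given in the sources used here. From these counts, genes with a mean of at least 0.5 after size factor scaling were kept (21583 of 49585) and all 28 libraries were fitted together with edgeR 4.0.16 (R 4.3.3, TMM factors, robust quasi-likelihood F-test). The 5 comparisons were the genotype in each sex, its difference between the sexes, and the sexes within each genotype. P-values were adjusted over all tested genes. Standard errors were derived from the F statistic and 95% intervals from a normal limit. Alternatives were RLE factors, upper-quartile factors, library totals alone, filterByExpr, no filter, DESeq2 1.42.0, each sex alone, a replicate block, 2 surrogate variables (sva 3.50.0) and leaving out each library. The script was tested on simulated data. Promoter motifs were searched in RefSeq windows, and gene symbols and exon lengths came from a Gencode annotation of GRCm38. Genes named are the 42 members, with pathway and marker genes from lists. The members and lists were chosen with earlier results of these data known. Replicates are separate mice, and library depth limits genes with few counts such as Ccnb1 and Cdc6.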

Additional observations from a re-analysis of the deposited data

Results flagged for a closer look

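A test for 1 library far from the rest of its group (Dixon's 95% limit) was run on 34 of the 42 genes. Of 136 tests of a gene in a group, 19 gave a value, where chance gives about 1 in 20 for independent tests. These tests were not independent, since mitosis genes varied together across libraries, and part of the 34 genes were picked for a low p. The number was therefore not weighed against that rate. Male WT replicate 7 gave 12 of the 19 values, all of them high. Its normalized counts were 188 for Ccna2, 92.1 for Ccnb1, 380 for Ccnb2, 97.4 for Aurkb, 34.9 for Melk, 96.7 for Foxm1, 512 for Mki67, 464 for Top2a, 200 for Kif20a, 92.8 for Nusap1, 205 for Tpx2 and 86.8 for Stmn1. Among male SIRT6-tg libraries, replicate 7 was high for Top2a (101) and Birc5 (47.9), while replicate 2 was low for Mcm3 (98.4), replicate 6 for Mcm5 (50.4) and replicate 4 for Mki67 (26.8). Among female SIRT6-tg libraries, replicate 5 was high for Rrm2 (239) and replicate 6 for Ccnb2 (57.6).

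The effect of the transgene differed between the sexes by edgeR (adjusted p under 0.05) for 18 genes, each more negative in males. On the log2 scale the male effect minus the female effect was -2.82 for Ccnb1, -1.94 for Ccnb2, -1.84 for Ccna2, -2.26 for Plk1, -1.56 for Aurkb and -0.974 for Bub1b. It was -2.43 for Cdc20, -1.84 for Ube2c and -2.18 for Foxm1. Chromosome and centromere genes had -1.92 (Mki67), -1.79 (Top2a), -2.11 (Cenpe) and -2.13 (Cenpf). Spindle genes had -1.03 (Kif11), -2.04 (Kif20a), -2.05 (Tpx2) and -2.34 (Hmmr), and the helicase subunit Mcm6 had -0.936.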

How the results depend on the processing

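The number of genes called in males was 31 to 34 with 1 library left out, 0 in females, 14 to 22 for the difference between the sexes and 19 to 29 between the WT sexes. In female against male SIRT6-tg livers it was 8, 5 with no filter and 3 to 10 with 1 library left out. With 1 library left out, the median of mitosis genes was -2.36 to -1.93 in males, -0.526 to -0.36 in females, -1.98 to -1.52 for the difference, -1.24 to -0.881 between the WT sexes and 0.533 to 0.644 between the SIRT6-tg sexes. For replication genes it was -0.419 to -0.281, -0.282 to -0.19, -0.208 to -0.0724, -0.416 to -0.2 and -0.245 to -0.121 in the same order. With library totals alone the median of replication genes was -0.649 in males, -0.425 for the difference and -0.541 between the WT sexes, and with 2 surrogate variables it was -0.161 between the WT sexes. Changes of sign, all in genes that did not pass, were Cdt1 in males with surrogate variables (0.0283), Pcna and Tyms in males with library totals alone (-0.169 and -0.119), Mcm7 in males with upper-quartile factors and library totals alone (-0.0153 and -0.214), and Tyms and Ccne2 in females with surrogate variables (0.00693 and 0.0128). Stmn1 in females had -0.00734 with upper-quartile factors, -0.00609 with filterByExpr and -0.0292 with the replicate block. With 1 library left out, values in females ran from -0.135 to 0.00107 (Pcna), -0.103 to 0.0163 (Tyms), -0.144 to 0.077 (Ccne2), -0.253 to 0.0218 (Kif20a), -0.119 to 0.022 (Aurka) and -0.185 to 0.137 (Stmn1), and Mcm7 in males from -0.00685 to 0.149. With 2 surrogate variables Mcm2 and Mcm4 no longer passed in males (-0.481 and -0.29, edgeR adjusted p = 0.0592 and 0.092). Leaving aside the fits without 1 library, 727 values of single genes kept their direction and their side of the threshold, 10 changed sign, 16 passed where they had not and 3 no longer passed. The cause of these changes was not tested.

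With the replicate number as a block (replicate block), 33 genes were called in males, 0 in females, 18 for the difference, 26 between the WT sexes and 9 between the SIRT6-tg sexes. The correlation of libraries with the same number ran from -0.118 to 0.229 in males and -0.283 to 0.271 in females, and 0 and 1 of 7 correlated best with their own number, so the numbers were not taken to pair the mice.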

Other observations

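After removal of the group means, mitosis genes varied together across the 28 libraries with a median Pearson r of 0.518 over 325 pairs of genes (0.0137 to 0.853). Replication genes had a median r of 0.202 among themselves over 120 pairs and 0.316 with mitosis genes over 416 pairs. The helicase genes Mcm3 and Mcm6 had a median r of 0.549 and 0.538 with mitosis genes, while Tk1 had -0.121, Ccne2 -0.0505 and Ccne1 0.0408. The libraries share depth and scaling, and male WT replicate 7 is among them, so these values are a description.

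Of the 18 genes with a CHR in the promoter window, 15 were lower in males, with a median log2 fold change of -1.93, and of the 16 without one 9 were lower, with a median of -0.82. Of the 11 genes with an E2F core 8 were lower, with a median of -1.13, and of the 23 without one 16 were lower, with a median of -1.33. Mitosis genes make up most of the first group, so motif and role cannot be told apart here.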
